A study of Homo sapiens with 121 samples.

Results

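The thymosins TMSB4X and TMSB10, the cytoplasmic actins ACTB and ACTG1, and the actin-binding genes PFN1, CFL1, MYL6 and TPM1 were followed across single human embryonic stem cells (hESCs). These 8 genes, of 25610 in the table, were chosen by their function together with their level and coexpression in these same cells, so their high levels and the correlations among them are given as descriptions. The cells belong to the established hESC line WA26, grown without feeders on Matrigel in E8 medium and passaged with EDTA and a Rock inhibitor. Messenger RNA was captured on oligo-dT beads for sequencing, and telomere length was taken by quantitative PCR from the genomic DNA of the same cell (scT&R-seq). By telomere length the labels divide the 121 cells into 81 long, 25 medium and 15 short, with no treatment or genetic change named. No culture or plate is named for any cell, so each group counts as 1 sample, cells are not replicates of a condition, and no p-value was computed. Errors below are SDs across cells.

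Actin monomers assemble into filaments that carry tension, cell shape and cell junctions, and a large part of a cell's actin is kept unassembled. Beta-thymosins are small peptides that bind single actin monomers and hold them out of filaments. Profilin takes actin monomers to the growing filament end, whereas cofilin severs old filaments and returns monomers to the pool. Tropomyosin winds along the filament and sets which partners can reach it, and non-muscle myosin II, with its light chains, pulls on it. Colonies of human pluripotent cells hold a contractile actin ring at their edge.

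All expression values carry the unit TPM, the abundance of transcripts scaled to a fixed sum in each cell and corrected for transcript length. The step that made them is not stated, and levels and ratios between genes rest on that unit. In the values, the smallest level above 0 of a gene fell with the length of its longest transcript (rho -0.54 over 12462 genes above 0 in at least 20 cells), from a median TPM of 0.28 over the 2493 genes with the shortest transcripts to 0.05 over the 2493 with the longest. A gene was counted as detected in a cell above TPM 1. Cells had 2030 to 11515 detected genes, with a median of 9165 in the long, 8626 in the medium and 5620 in the short group. Telomere group and number of detected genes thus moved together, and the main comparisons are also given on either side of 8000 detected genes: in the 68 gene-rich cells above it (51 long, 14 medium, 3 short) and the 53 gene-poor cells up to it (30, 11 and 12). Comparisons over all genes use the 6213 expressed genes, those whose mean TPM reached 10. No pair of cells held identical values. Among 8 pluripotency markers, POU5F1 and LIN28A were detected in 100% of cells and NANOG in 95.9%. The sum of the 8 had a median TPM of 2830, 2420 and 1215 in the long, medium and short groups. For 12 germ layer markers the median sum was 7.34, 5.93 and 12.4. Among 10 fibroblast and mesenchymal markers, LUM, TWIST1 and PRRX1 were at 0 in every cell and 6 were above TPM 1 in at least 1 cell. The sum of these 10 markers had a median TPM of 140, 114 and 112 in the long, medium and short groups, most of it from THY1 (mean TPM 142), which pluripotent cells also express.

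**Figure D1:**
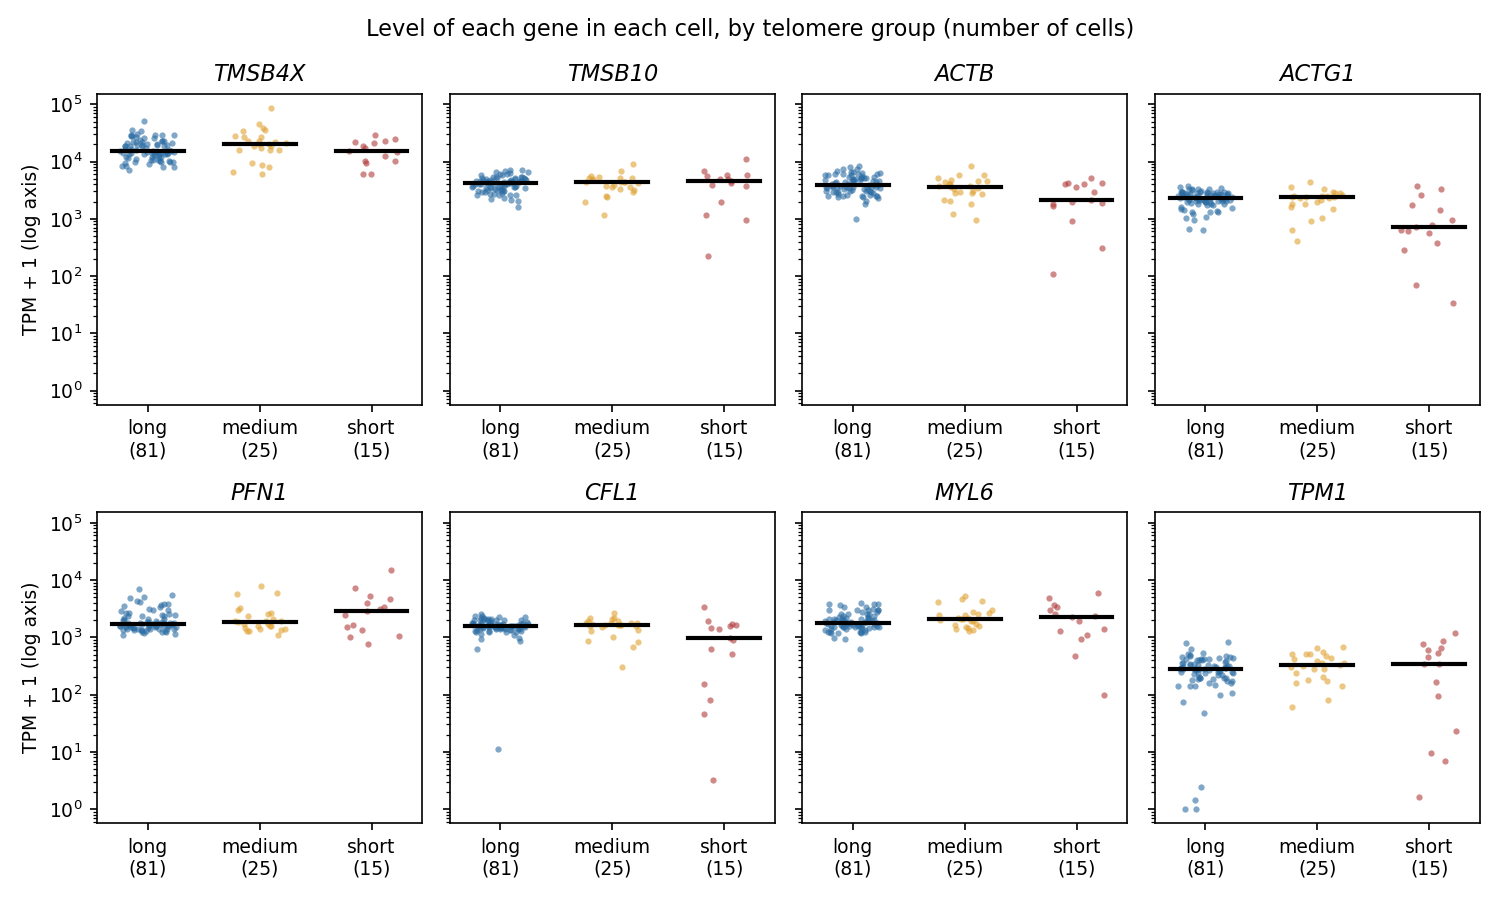
Level of each of the 8 genes in each cell, one panel a gene, as TPM + 1 on a log axis; each point is a cell, cells are placed by telomere group (81 long, 25 medium, 15 short), and black bars are group medians. TMSB4X lies between 6023 and 87393 TPM in every cell, while ACTG1, CFL1 and TPM1 have cells far below the rest, CFL1 down to 2.21 TPM in a short cell.

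TMSB4X, encoding thymosin beta-4 and located on chrX:12993229-12995346 (GRCh37, plus strand), had the highest mean TPM of all genes read. Its TPM was 18568 ± 10363 (SD, n = 121 cells), with a lowest value of 6023, a median of 16085 and a highest of 87393. It was the top gene of 54 cells and among the first 2 of 96, and its lowest rank in any cell was 20. Only the small RNA gene MIR4461 was the top gene of more cells, 56. In the long cells TMSB4X spanned 7197 to 51126 (median 15193), in the medium cells 6175 to 87393 (median 20619) and in the short cells 6023 to 28551 (median 15290). The 3 groups overlapped from 7197 to 28551, a range that held all 3 medians. The highest cell, Medium_5, gave 8.74% of its transcripts to this gene. No cell lay more than 4 times below the median, which held for TMSB4X and PFN1 but not for the other 6 genes.

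TMSB10, encoding thymosin beta-10 (chr2:85132780-85133795, plus strand), ranked 24th by mean TPM, at 4226 ± 1543. The long cells ran from 1627 to 7078 (median 4227), the medium from 1154 to 9217 (median 4315) and the short from 221 to 11068 (median 4632). Both the lowest and the highest cell were short, Short_6 and Short_5, and the SD on the log2 scale was 1.42 in the short against 0.44 in the long cells. TMSB4X exceeded TMSB10 in 121 of 121 cells, by 1.30-fold to 42.2-fold, with a median of 4.24-fold. Across cells the thymosins were only loosely related: Pearson's r of log2(TPM + 1) was 0.18 over 121 cells, 0.09 in gene-rich and 0.34 in gene-poor cells. The paralogs TMSB15A and TMSB15B were far lower, at mean TPM 337 and 59.7.

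ACTB, encoding beta-actin (chr7:5566040-5603533, minus strand), had a mean TPM of 3894 ± 1620. In the long cells it ran from 1004 to 8204 (median 3828), in the medium cells from 963 to 8251 (median 3663) and in the short cells from 107 to 5142 (median 2098). The short cells thus reached both lower and less high than the others. ACTG1, encoding gamma-actin (chr17:79476439-79490873, minus strand), had a mean TPM of 2141 ± 870. Its long cells ran from 625 to 3792 (median 2262), its medium cells from 405 to 4316 (median 2376) and its short cells from 33.4 to 3793 (median 719). Of the 5 cells that lay more than 4 times below the ACTG1 median, 4 were short and 1 medium, and each was gene-poor. ACTB exceeded ACTG1 in 114 of 121 cells, with a median ratio of 1.72. The median ratio was 1.58 in gene-rich cells, where it stayed within 0.916 to 3.12, and 2.05 in gene-poor cells, where it spanned 0.494 to 29.2.

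The actins made by muscle were far below the cytoplasmic actins. ACTA2, the smooth muscle alpha-actin, was detected in 0.83% of cells, ACTA1 in 5.79% and ACTC1 in 19.0%, while ACTG2, the smooth muscle gamma-actin, was detected in 80.2% at a mean TPM of 9.95 and reached 225 in a cell. Promoters were available for 7 members, ACTB not among them, and of these ACTG1 carried a CArG box. Whether ACTB carries it was not examined. This motif is bound by serum response factor (SRF), whose coactivators are held back by monomeric actin. The motif is 2 C, then 6 letters that are A or T, then 2 G, and is the same on both strands. Promoters of 300 bases, from 250 before to 50 after the start, were taken from RefSeq for GRCh38.p14, 1 for each gene symbol on the chromosomes. They were found for 7 of the 8 members (all but ACTB), and the box was in 1 of the 7, in 8 of 67 genes of a wider actin list (11.9%) and in 1.29% of 27305 promoters. The 8 were ACTA1, ACTC1, ACTG2, CNN2, FLNA, ROCK2, SRF and TPM4. A GC box (GGGCGG or its complement CCGCCC) was in all 7 members, in 62 of 67 genes of the wider list (92.5%) and in 44.6% of promoters. CCAAT or its complement was in ACTG1, CFL1 and MYL6, in 40.3% of the wider list and in 35.7% of promoters. TATAAA or its complement was in none of the 7, in 8.96% of the wider list and in 12.0% of promoters. Shown are the stretches from 140 to 41 bases before the start of ACTG1 and of CNN2 (calponin 2, an actin-binding protein), the latter because it was the gene most like ACTG1 in gene-rich cells. The CArG box is in capitals.
ACTG1, chr17:81512840-81512939, minus strand: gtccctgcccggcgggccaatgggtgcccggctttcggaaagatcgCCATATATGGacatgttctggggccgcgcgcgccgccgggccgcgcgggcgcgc
CNN2, chr19:1026468-1026567, plus strand: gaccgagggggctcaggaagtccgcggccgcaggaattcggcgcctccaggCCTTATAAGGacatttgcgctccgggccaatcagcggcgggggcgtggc
In ACTG1 the box begins 94 bases before the start. A match of letters is a description of the sequence and no evidence of binding in these cells. SRF itself had a mean TPM of 5.86 and its coactivators MKL1 and MKL2 had 4.95 and 3.46.

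PFN1, encoding profilin 1 (chr17:4848947-4852356, minus strand), was the member whose level departed most from the usual relation with the number of detected genes. Its TPM was 2382 ± 1785, with 1093 to 6938 in the long cells (median 1710), 1100 to 8014 in the medium cells (median 1816) and 758 to 15138 in the short cells (median 2837). The 3 cells more than 4 times above the median were Medium_19, Short_9 and Short_15, and the last gave 1.51% of its transcripts to PFN1. PFN1 was 1677 ± 453 TPM in gene-rich cells and 3288 ± 2368 TPM in gene-poor cells. Against the count of detected genes PFN1 had a Pearson's r of -0.65 over 121 cells (Spearman's rho -0.56), the second lowest of the 6213 expressed genes. NDUFA13, a subunit of respiratory complex I, was the lowest at -0.66. The relation was also negative within the gene-rich cells, at -0.41, and within the gene-poor cells, at -0.52, where no expressed gene was lower. All points of these correlations share the scaling of each cell to a fixed sum, so a gene's TPM and the number of genes detected are not independent measures.

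CFL1, encoding cofilin 1 (chr11:65590493-65629497, minus strand), was instead low in some cells with few detected genes. Its TPM was 1527 ± 534, with 10.3 to 2505 in the long cells (median 1572), 298 to 2604 in the medium cells (median 1630) and 2.21 to 3386 in the short cells (median 971). It was 1651 ± 284 TPM in gene-rich and 1368 ± 712 TPM in gene-poor cells. Of 6 cells more than 4 times below the median, 4 were short, 1 was medium and 1 was long (Long_4, 10.3 TPM), and all 6 were gene-poor. Its r against the count of detected genes was 0.41 (rho 0.19), close to the median of 0.42 over the 6213 expressed genes. Only 3 members passed a correlation of 0.4 in size. ACTG1 (0.47) and CFL1 did so upwards, as did 54.1% of expressed genes, and PFN1 did so downwards, as did 0.644%. The rest were TPM1 at 0.38, TMSB10 at 0.36, ACTB at 0.23, TMSB4X at -0.15 and MYL6 at -0.19.

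Within a cell, PFN1 and CFL1 were near equal in the gene-rich set. The ratio of PFN1 to CFL1 had a median of 0.991 there and stayed within 0.619 to 2.26. In gene-poor cells its median was 1.68 and it reached 6850 in Short_15, the cell with the fewest detected genes (2030), where PFN1 stood at 15138 TPM and CFL1 at 2.21. PFN1 was more than 4 times CFL1 in 14 cells, 7 of them short, 4 long and 3 medium, and all 14 were gene-poor. By group the mean log2 ratio was 0.39 ± 1.02 in the long, 0.52 ± 1.07 in the medium and 2.44 ± 3.40 in the short cells. Within gene-rich cells it was 0.02 ± 0.31, 0.00 ± 0.23 and -0.22 ± 0.42, the last over 3 cells. The short cells exceeded the long ones in the gene-poor set only, by 2.07 on the log2 scale, with the short cell higher in 76.4% of long-short pairs. Short_15 carried much of this: without it the difference was 1.20 in the gene-poor set, and over all cells it went from 2.05 to 1.31. The gene-poor set did not make the count of detected genes equal, with a mean of 5755 in its long and 4933 in its short cells. The r of the PFN1 to CFL1 ratio with that count was -0.62 over all cells, -0.21 in gene-rich and -0.61 in gene-poor cells.

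**Figure D2:**
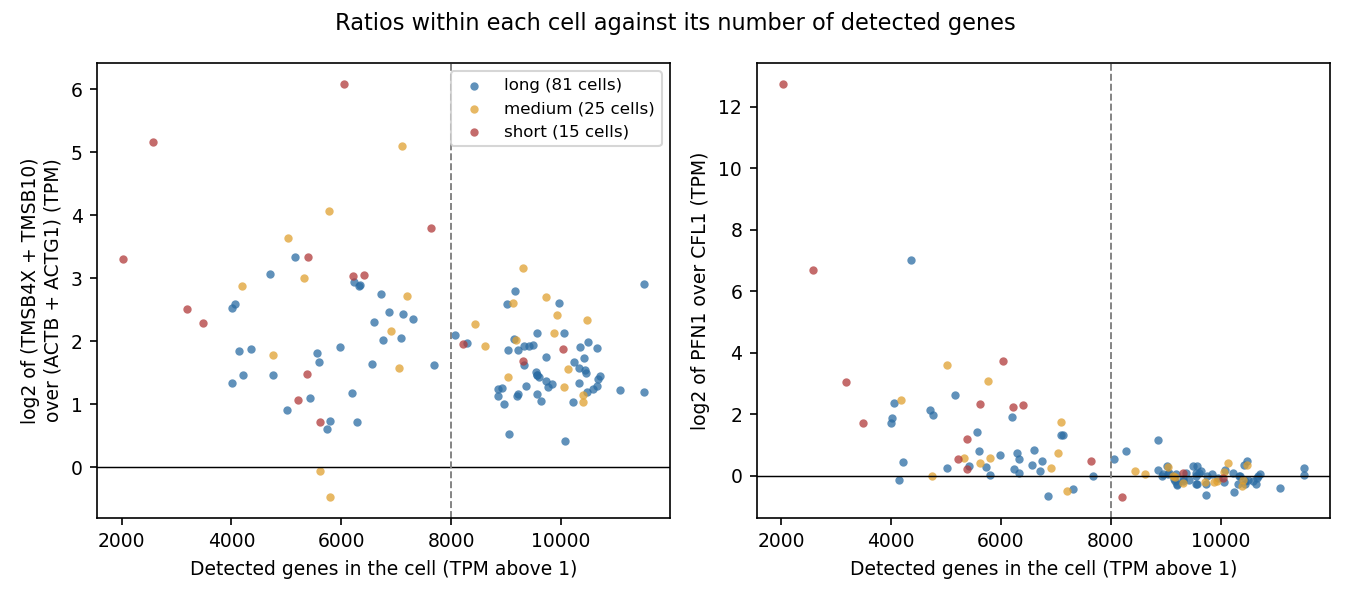
Ratios within each cell, on a log2 scale, against the number of genes detected in that cell (TPM above 1): thymosins over actins on the left and PFN1 over CFL1 on the right; each point is a cell, coloured by telomere group, and the dashed line marks 8000 detected genes. On the right the gene-rich cells hold between -0.69 and 1.17, and gene-poor cells reach 12.74.

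MYL6, the essential light chain of non-muscle myosin II (chr12:56552130-56557280, plus strand), had a mean TPM of 2127 ± 971. It ran from 621 to 3990 in the long cells (median 1792), from 1297 to 5205 in the medium cells (median 2120) and from 95.4 to 5959 in the short cells (median 2223). The short cells held both ends, Short_6 and Short_15. TPM1, encoding tropomyosin 1 (chr15:63334819-63364114, plus strand), was the lowest member and the only one not detected in every cell, with a mean TPM of 314 ± 195 and detection in 117 of 121 cells. Its long cells ran from 0 to 834 (median 279), its medium cells from 59.6 to 668 (median 324) and its short cells from 0.61 to 1170 (median 344). The 4 cells without it, 3 long and 1 short, were gene-poor. TPM3 was higher than TPM1, at a mean TPM of 437, and was detected in 100% of cells.

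In mean log2(TPM + 1) the order was TMSB4X, TMSB10, ACTB, PFN1, MYL6, ACTG1, CFL1 and TPM1. TMSB4X stood above every other member in at least 119 of 121 cells, and TPM1 stood below every other member in at least 118. Between them, several neighbours were not separated beyond their spread: TMSB10 exceeded ACTB in 73 of 121 cells, MYL6 exceeded PFN1 in 61 and ACTG1 exceeded MYL6 in 77. The next steps were ACTB over PFN1, seen in 103 cells, and ACTG1 over CFL1, seen in 99. Together the 8 genes gave 3.52% ± 1.15 of the transcripts of a cell, from 1.09% in Short_6 to 10.8% in Medium_5. Relative to the mean, CFL1, TMSB10, ACTG1 and ACTB varied least, with coefficients of variation of 0.35, 0.37, 0.41 and 0.42. These were places 32, 42, 76 and 88 from the steadiest among the 553 genes whose mean TPM reached 300. MYL6 (0.46), TMSB4X (0.56) and TPM1 (0.62) followed, and PFN1 varied most (0.75, place 408). On the log2 scale, which weighs low cells more, the order was another: the SD of log2(TPM + 1) was 1.86 for TPM1, 1.30 for CFL1, 1.01 for ACTG1 and 0.84 for ACTB, and between 0.67 and 0.72 for TMSB10, TMSB4X, PFN1 and MYL6.

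Reads were 50 bases long, and these genes have many processed copies in the genome, so the mapping of part of their reads is uncertain. The GRCh37 annotation names 21 pseudogenes after ACTG1, 12 after ACTB, 11 after PFN1, 9 after CFL1, 6 after TMSB4X, 5 after MYL6, 2 after TMSB10 and 0 after TPM1. Of the 50-base windows of the longest coding transcript, 2.43% of TMSB10, 2.95% of MYL6, 4.10% of CFL1, 4.26% of ACTG1, 8.54% of ACTB, 9.79% of PFN1 and 11.1% of TMSB4X also occurred, on either strand, in an annotated transcript of another gene. For TPM1 it was 42.1%, all with the antisense gene TPM1-AS, from which its reads cannot be told apart without strand. By the methods TopHat and HTSeq ran with default parameters, under which HTSeq leaves out reads with several positions, whereas RSEM, listed in the processing notes, shares them out, and which of them made these values is not stated.

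The study asked how expression goes with telomere length, and the long minus short difference of mean log2(TPM + 1) was computed for each member. ACTG1 was higher in long cells by 1.70 (11.09 ± 0.51 against 9.39 ± 1.89), CFL1 by 1.57 (10.53 ± 0.86 against 8.97 ± 2.69) and ACTB by 1.07 (11.94 ± 0.55 against 10.87 ± 1.55). The long cell was the higher in 80.2%, 70.9% and 75.2% of long-short pairs of cells, respectively. These 3 of 8 members passed a difference of 1, against 66.5% of the 6213 expressed genes (24.8% of the 21080 genes above TPM 0 in a cell). The differences of the other members were 0.52 for TPM1, 0.30 for TMSB10, 0.17 for MYL6, 0.16 for TMSB4X and -0.44 for PFN1. In pairs, however, the long cell was the higher in only 42.7% for TPM1, 45.4% for TMSB10 and 47.1% for MYL6, with 54.2% for TMSB4X and 39.8% for PFN1. Differences of group medians in place of means were -0.30, -0.13 and -0.31 for TPM1, TMSB10 and MYL6, so the direction of these 3 turned with the measure. Dividing each cell by its median ratio to genes that no cell lacked moved the median of the expressed genes by -0.38 and put TPM1 at -0.20, TMSB10 at -0.46, MYL6 at -0.60 and TMSB4X at -0.61, so the sign of these 4 depends on the scaling. Each of the 8 differences was smaller than the SD of the short cells for that gene. No member was lower in long cells by 1, and 1.71% of expressed genes were. The median over the 8 members was 0.41 and that over the expressed genes was 1.40. With group medians these were -0.07 and 2.02, and in gene-rich cells 0.01 and 0.04. Set against the general shift, ACTG1 was at or above 63.5% of genes, CFL1 57.1% and ACTB 36.0%. TMSB4X, MYL6 and PFN1 were at or above 11.3%, 11.5% and 4.55%. All 8 members were among the 553 genes whose mean TPM reached 300, whereas the 6213 genes begin at a mean TPM of 10. The members are thus set beside many genes of lower level, and the shift of genes of like level was not tested.

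**Figure D3:**
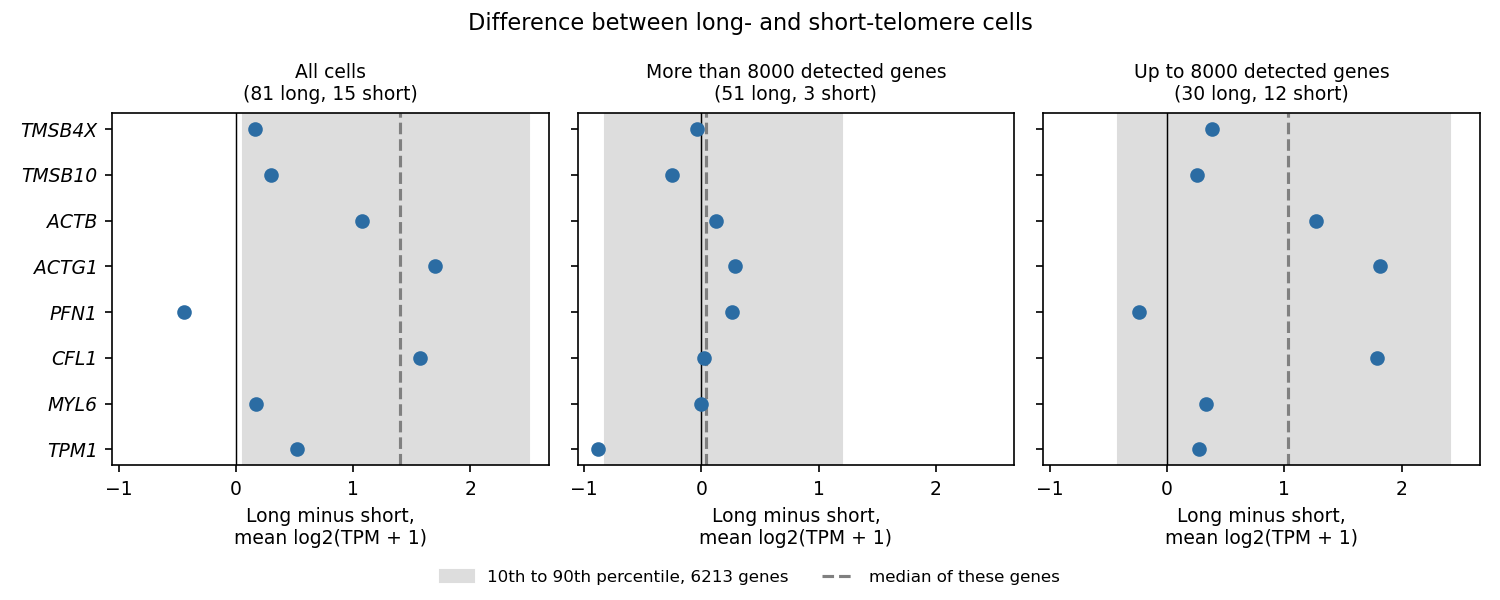
Long minus short difference of mean log2(TPM + 1) for each gene (points), over all cells and on either side of 8000 detected genes; the grey band runs from the 10th to the 90th percentile of the 6213 expressed genes and the dashed line is their median. Over all cells ACTG1 (1.70) and CFL1 (1.57) lie beyond the median of 1.40 and PFN1 (-0.44) lies outside the band, while in gene-rich cells the median is 0.04.

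In gene-rich cells, 0 of 8 members passed a difference of 1, against 12.7% of expressed genes, and the short group held only 3 cells. ACTG1 was then 0.29, ACTB 0.12 and CFL1 0.02 higher in long cells, and TPM1 was 0.89 lower (8.13 ± 0.56 against 9.02 ± 1.02). Of the 3 short cells, Short_10 held TPM1 at 1170 TPM, and Short_1 and Short_3 held it at 344. The median of the gene-rich long cells was 286. In gene-rich cells PFN1 was at 0.26, TMSB10 at -0.25, TMSB4X at -0.04 and MYL6 at -0.00. The sign of PFN1 was thus not stable, and its difference was 0.036 without the 11 cells with the fewest detected genes. Among gene-poor cells the differences of ACTG1, CFL1 and ACTB were 1.81, 1.79 and 1.27, so that the same 3 of 8 passed, against 51% of expressed genes. PFN1 differed by -0.24 there and the thymosins by 0.38 (TMSB4X) and 0.25 (TMSB10). Leaving out Short_6 and Short_15, the lowest cells for 5 of the members, brought the difference of ACTG1 to 1.12, of ACTB to 0.76 and of CFL1 to 0.80, so that 1 of 8 passed, against 58.9% of expressed genes, and TPM1 turned to -0.28. The median over the members was then 0.09. These cells were chosen after the values were seen. ACTB was at 0.78 without Short_6 alone and at 0.89 without Short_13 alone, and CFL1 was at 1.05 without Short_15 alone.

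Long minus medium differences ran from -0.49 (TPM1) to 0.24 (ACTB), 0 of 8 members passed 1 and 1.75% of expressed genes did. TMSB4X had its highest mean in the medium cells, 14.27 ± 0.89 against 13.97 ± 0.58 in the long and 13.81 ± 0.70 in the short cells, differences smaller than the SDs. Between medium and short cells, ACTG1 (1.57), CFL1 (1.53) and TPM1 (1.01) passed 1 and ACTB did not (0.83). Thus 3 of 8 passed, against 59.9% of expressed genes. For TPM1, however, the medium cell was the higher in only 48.5% of medium-short pairs. Its median TPM was 324 in the medium and 344 in the short cells, so its direction turned with the measure. In gene-poor cells TPM1 was 1.10 lower and MYL6 0.42 lower in long than in medium cells, so that 1 of 8 was lower by 1, against 7.84% of expressed genes. There ACTG1 (1.67), CFL1 (1.62), TPM1 (1.38) and ACTB (1.01) were higher in medium than in short cells by 1, 4 of 8 against 47.4%. For TPM1 the medium cell was the higher in 53.0% of these gene-poor pairs. In gene-rich cells no member differed by 1 in either comparison with the medium group. Of the 6213 expressed genes, 80 were higher and 44 lower by 1 in long than in medium cells there. Between medium and short cells 789 were higher and 568 lower by 1 in the medium cells. The farthest member was TPM1 between medium and short (-0.74), with Short_10 among the 3 short cells.

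The ratio of the summed thymosins to the summed actins sets monomer-binding peptides beside actin on the same scale. Thymosin messages outnumbered actin messages in 119 of 121 cells. The ratio ran from 1.34 to 10.2 in the long cells (median 3.10), from 0.720 to 34.2 in the medium cells (median 4.49) and from 1.65 to 68.2 in the short cells (median 5.74). The ranges overlapped, with the extreme cells in the medium and short groups: Medium_24 was lowest, and Short_6, where ACTB stood at 107 and ACTG1 at 33.4 TPM, was highest. On the log2 scale the means were 1.72 ± 0.63, 2.18 ± 1.19 and 2.76 ± 1.47, so that the long cells were 1.04 below the short cells, and the short cell was the higher in 73.6% of pairs. In gene-rich cells the long group was 0.26 below the short cells (1.58 ± 0.51 against 1.84 ± 0.14, 3 short cells) and 0.42 below the medium cells (2.00 ± 0.64). In gene-poor cells the long group was 1.04 below the short one. Against the count of detected genes the ratio had an r of -0.31 over all cells, -0.14 in gene-rich and -0.05 in gene-poor cells.

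Coexpression of the 8 genes was uneven by pair. Over 28 pairs the median Pearson's r across 121 cells was 0.15, from -0.40 (ACTG1 with PFN1) to 0.69 (ACTB with ACTG1), and 6 pairs reached 0.4. The median was 0.048 in gene-rich cells, with 9 pairs below 0, and 0.19 in gene-poor cells, with 4 below 0. The same was not computed over pairs of all expressed genes, so whether these values are low or high for such genes was not tested. All cells share the scaling to a fixed sum and differ in number of detected genes, so pairs are given in both sets as well. The actins had r of 0.40 in gene-rich and 0.71 in gene-poor cells. PFN1 with MYL6 had r of 0.54 over all cells, 0.57 in gene-rich and 0.54 in gene-poor cells, with rho of 0.58 over all cells, and was the pair least moved by the choice of cells among those that reached 0.4. ACTG1 with CFL1 had r of 0.67 over all cells, but -0.19 in gene-rich and 0.68 in gene-poor cells, and rho over all cells was 0.23. PFN1 with CFL1 went from -0.20 over all cells to 0.47 in gene-rich and -0.10 in gene-poor cells. In the gene-rich set PFN1, CFL1 and MYL6 were the members with the highest mutual correlations (0.42 to 0.57), and CFL1 was at -0.18 and -0.19 with ACTB and ACTG1. TMSB4X stayed at or below 0.27 with every other member over all cells and in gene-rich cells.

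**Figure D4:**
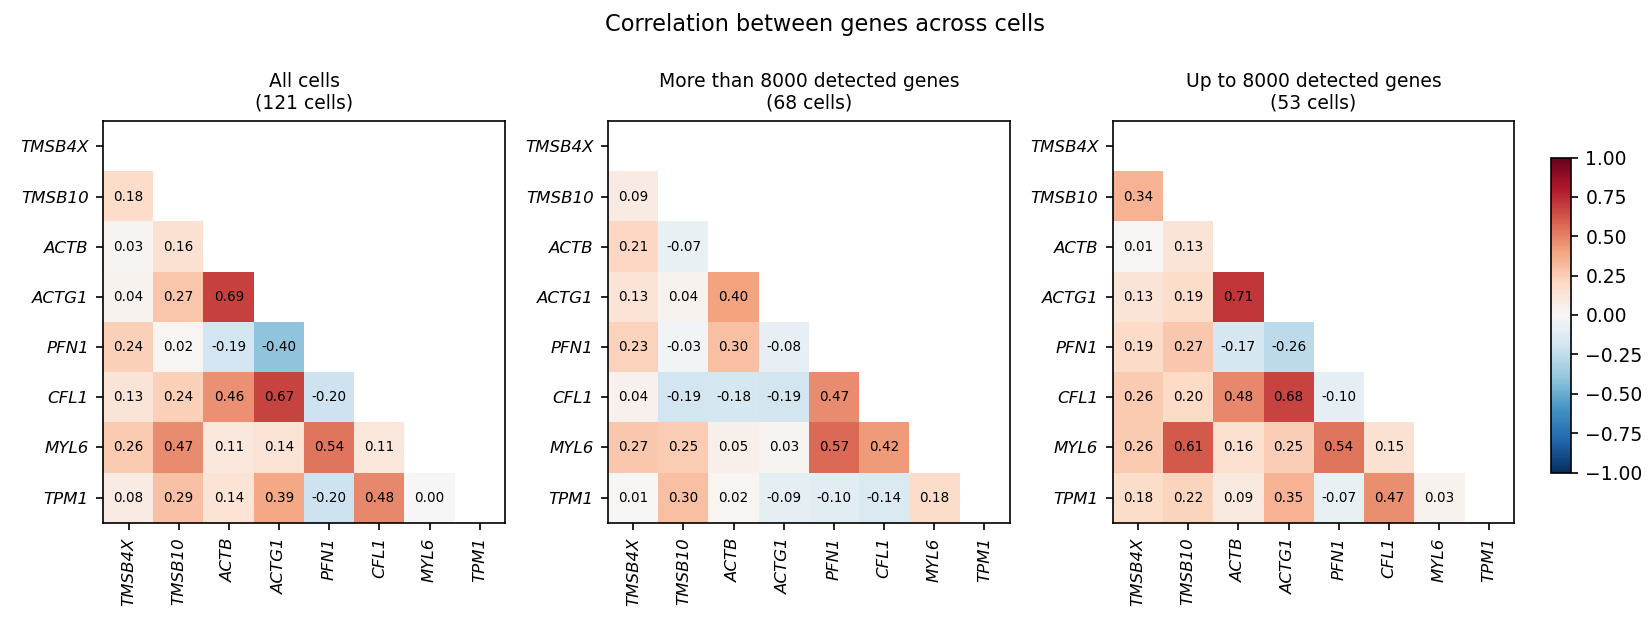
Pearson's r of log2(TPM + 1) for each pair of the 8 genes, over all 121 cells, the 68 gene-rich and the 53 gene-poor cells; colour and printed number give r. ACTB with ACTG1 and PFN1 with MYL6 are at or above 0.40 in all 3 panels, while ACTG1 with CFL1 passes from 0.67 and 0.68 to -0.19 in gene-rich cells.

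The genes most like each member were taken as the 3 with the highest r over 121 cells, among the expressed genes. For ACTB these were ATP5B (0.73), ACTG1 itself (0.69) and PGAM1 (0.67), and for ACTG1 they were YWHAZ (0.80), PGAM1 (0.78) and ANXA5 (0.78). Much of this likeness was absent in gene-rich cells, where ACTB had 0.43 with ATP5B and -0.19 with PGAM1, and ACTG1 had 0.39 with YWHAZ, -0.00 with PGAM1 and -0.12 with ANXA5. For PFN1 they were NDUFA13 (0.80), NDUFA6 (0.79) and GSTP1 (0.78), which had r of 0.71, 0.69 and 0.67 in gene-rich cells. By rank the likeness of NDUFA13 to PFN1 was weaker there, with a Spearman's rho of 0.49. CFL1 went with GNB2L1 (0.80), OAZ1 (0.80) and NME1 (0.79), and the first of these was at -0.38 in gene-rich cells. TMSB10 went with USMG5 (0.73), RPL35A (0.72) and RPS16 (0.71), which were at 0.43, 0.23 and 0.29 in gene-rich cells. MYL6 went with SHFM1, GTF3C6 and HSPE1 (0.65 each), which were at 0.44, 0.28 and 0.25 in gene-rich cells. TPM1 went with GGCT (0.65), MRPL33 (0.57) and SLC25A6 (0.57). The last 3 were at 0.02, 0.21 and -0.12 with TPM1 in gene-rich cells. TMSB4X had no close companion, the highest being SERF2 (0.38), ATP5J2 (0.34) and PRDX5 (0.33).

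Neighbours were also taken within the gene-rich cells, a choice made after the values were seen. TMSB10 then went with S100A10 (0.62), SPP1 (0.54) and VIM (0.51), that is the annexin A2 partner p11, osteopontin and vimentin. TPM1 went with ANXA2 (0.52), TAGLN2 (0.47) and ANXA1 (0.46), annexins and transgelin 2. ACTG1 went with CNN2 (0.53), whose promoter is printed above and which had r of 0.63 with ACTG1 in gene-poor cells. MYL6 had PFN1 itself as its nearest gene (0.57), before ANXA5 (0.56) and GSTP1 (0.55). In gene-poor cells TMSB10 with VIM was at 0.07 and TPM1 with TAGLN2 at 0.08.

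The rest of the actin machinery was read from a list of 76 genes chosen by function, of which 54 were among the expressed genes. Of these 54, 44 were higher in long than in short cells by at least 1 and 0 were lower by 1, against 66.5% and 1.71% of all expressed genes, with a median of 1.77 beside 1.40. WDR1, the cofilin cofactor AIP1, had the largest difference of the list, 3.42, followed by CAPZA1 (3.18), a subunit of the protein that caps filament ends, and the small GTPase RHOA (3.09). At the other end TPM3 differed by -0.34 and MYH9, a heavy chain of non-muscle myosin II, by -0.12, and below the filter on low levels SSH1, a cofilin phosphatase, by -0.39. All 5 turnover partners that passed the filter, all 4 capping proteins and all 9 crosslinkers and bundlers passed 1, as did 7 of 9 subunits of the Arp2/3 complex, which starts filament branches. Its exceptions were ARPC2 (0.53) and ARPC3 (0.78), the most highly expressed of the complex at mean TPM 602 and 668. In gene-rich cells 2 of the 54 were higher in long cells by 1 and 4 were lower, with a median of -0.11, against 12.7% and 6.94% of expressed genes and a median of 0.04.

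Relatives of the members, at lower levels, gave mostly larger differences, which were not tested against those of the members. PFN2 was 2.54 higher in long cells, the cofilin relatives DSTN and CFL2 2.24 and 1.15, TMSB15B and TMSB15A 2.13 and 1.62, and TPM2 and TPM4 1.99 and 1.44, while their mean TPM lay between 17.9 and 337. In pairs, the long cell was the higher in 81.4% for PFN2, 72.3% for TMSB15B and 66.3% each for TPM2 and TPM4. The share was 62.9% for CFL2, 61.3% for TMSB15A and only 54.8% for DSTN. MYL6B, listed with non-muscle myosin II, differed by 0.92, with the long cell higher in 49.8% of pairs. MYL12A and MYL12B, the regulatory light chains of the same myosin, differed by 1.36 and 1.33 at mean TPM 770 and 1138. For MYL12A and MYL12B the long cell was the higher in 74.1% and 68.2% of pairs. Of 9 tubulins, 7 passed 1 (median 1.55), from 0.82 to 2.54 (TUBB6). Of 7 intermediate filament genes above the filter, 2 passed 1 (median 0.76), namely KRT8 (1.43) and LMNB1 (2.60), both counts beside 66.5% of expressed genes. In gene-rich cells most of these differences were smaller: 0 of 9 tubulins passed 1 (median -0.15, TUBB6 -0.07), 0 of 7 intermediate filament genes did (median -0.02) and 1 of the 7 was lower by 1. DSTN stood at -0.35 there, TPM2 at -0.26, TPM4 at -0.16, TMSB15A at 0.11, CFL2 at 0.30, TMSB15B at 0.71 and PFN2 at 0.74, and MYL12A and MYL12B at -0.14 and -0.25. VIM was 2.35 lower in the 51 long than in the 3 short cells, and the actin-bundling genes TAGLN and TAGLN2 were 3.14 and 1.80 lower. Also past 1 there, TWF2 and MYL9 were 1.55 and 1.53 lower in long cells, whereas MYL6B and VASP were 1.96 and 1.02 higher. All of these values rest on 3 short cells.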

How the data were processed

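The authors sequenced single-cell cDNA as 50-base single-end reads and, by their methods, aligned them to hg19 with TopHat and counted them per RefGene gene with HTSeq, both with default parameters, and then normalized the counts by library size factors. The submitters' processing notes list TopHat2 and RSEM. The deposited table holds values the authors call TPM, and how transcript length entered them is not given in the sources used here. TPM keeps no read number, so the depth of each cell was not taken from the values and no counting error was given. Values sum to 979828 to 997050 per cell over the 25610 complete rows read; genes after ZFR by symbol were not analysed here.

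Members, lists and the border of 8000 detected genes were chosen with earlier results of these data known. Groups are those of the labels, and T/R ratios were not used here. Each group counts as 1 sample, so results are means of log2(TPM + 1), medians, differences, percentages of cell pairs and correlations, without tests. Named are the 8 members, the listed genes, the 3 genes most correlated with each member (mean TPM of at least 10) and the ends of the actin list; CNN2, and the neighbours within cells with many detected genes, were added after the values were seen. Positions are from a GRCh37 annotation and promoters from RefSeq for GRCh38.p14. Calculations were tested on simulated data. The software was numpy 2.4.6 and scipy 1.17.1 in Python 3.11.15, beside pandas 2.3.3 for tables and matplotlib 3.10.9 for plots.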

Additional observations from a re-analysis of the deposited data

How the results depend on the processing

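A correlation was taken as moved past 0.1, a log2 difference past 0.5 and a count past 1.5 times. The number of members past a long minus short difference of 1 was 3. It was 1 with the median of the cells, 1 without the 11 cells with few detected genes (under 4464), 1 with both Short_6 and Short_15 left out (chosen after seeing the data), 0 after division by the median ratio and 0 with more than 8000 detected genes. The shares of expressed genes past 1 in these 5 settings were 68.2%, 57.3%, 58.9%, 50.8% and 12.7%, against 66.5% in the main comparison. Leaving out each short cell in turn gave 2 to 3. The median over the members moved from 0.41 to -0.33 after division by the median ratio, taken from the 602 genes that no cell lacked, a scaling that moved the median of expressed genes by -0.38. It put PFN1 at -1.21, ACTG1 at 0.94, CFL1 at 0.81 and ACTB at 0.31, and TMSB4X at -0.61. Leaving out each short cell gave medians of 0.18 (without Short_6; 0.27 without Short_8) to 0.55. The median pairwise correlation moved from 0.15 to 0.032 on TPM without a logarithm, 0.28 without the cells with few detected genes and -0.10 after division by the median ratio. With more than 8000 detected genes it was 0.048, a drop just inside the limit. The long minus short difference of the thymosin to actin ratio moved from -1.04 to -0.26 with more than 8000 detected genes and lay between -1.19 and -0.80 when each short cell was left out. Other alternatives tried on these 4 results (pseudocounts, rescaling without ribosomal protein genes, Spearman's rho, the correlation left after removing the count of detected genes and, for the ratio, the median of the cells) stayed within the limits. No paired analysis was possible because the results come from no test, and the cell numbers that recur across groups in the titles tie cells to no shared culture or plate. TPM keeps no read number, so low values could not be weighed by depth.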
